A study of Homo sapiens with 7 samples.

Results

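The L6 family comprises 6 human genes, TM4SF1, TM4SF4, TM4SF5, TM4SF18, TM4SF19 and TM4SF20, which encode small 4-transmembrane proteins. Its members were taken as all probes that the platform annotation assigns to these symbols, together with the probe ILMN_1808325, which has no symbol in that annotation and is listed under TM4SF19 in the supplement of the paper. This gave 3 probes of 2 genes, among 19337 tested probes that carry 11389 gene names: ILMN_2413644 and ILMN_1808325 for TM4SF19 and ILMN_1770338 for TM4SF1. The annotation used here covers the tested probes, and 4275 of these have no gene name. For the other 4 genes (TM4SF4, TM4SF5, TM4SF18 and TM4SF20) no tested probe carried the symbol, so no value is given for them. The family was chosen by the measured Dox and No dox signal of TM4SF19 on these same arrays. The difference between Dox and No dox at the 2 TM4SF19 probes is therefore given as a description, without a test, whereas TM4SF1 came in by its name.

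L6 proteins resemble tetraspanins in crossing the membrane 4 times, with a small and a large extracellular loop, but form a family of their own in sequence. TM4SF1, the tumor-associated antigen L6 after which the family is named, is abundant in many carcinomas and in endothelium, where it takes part in cell migration. TM4SF19 was described as a gene of maturing osteoclasts, the bone-resorbing cells that form by fusion of macrophage precursors. MITF, a basic helix-loop-helix factor, is itself needed for osteoclast maturation in mice and binds E-boxes, among them the M-box type.

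The study profiled PC3, a cell line that was derived from a prostate cancer metastasis in bone, on Illumina HumanHT-12 v4 BeadChips, on which each probe is an oligonucleotide of fixed sequence. The Dox group (4 arrays, replicates 1 to 4) held doxycycline-treated cells and the No dox group (3 arrays, replicates 2 to 4) untreated cells, and all 7 carried the same lentiviral TRIPZ-MITFA cassette, which expresses tagged MITFA under a doxycycline-inducible promoter. The series holds no array labelled as untreated replicate 1, and no dose or duration of treatment is stated for the arrays. Without an array of doxycycline-treated cells that lack the cassette, doxycycline and MITFA cannot be told apart. Whether each array had a culture of its own is not stated in the labels, and the spread behind the p-values may be technical.

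Between 15562 and 16618 probes per array were detected (detection p-value under 0.01), and the correlation between arrays lay between 0.994 and 0.996. The tested MITF probe had a log2 signal of 6.76 ± 0.12 in Dox (SD, n = 4) and 6.82 ± 0.11 in No dox (SD, n = 3), with no statement of whether this probe reads the tagged cDNA. By qRTPCR and western blot, the paper reports induction of MITFA in doxycycline-treated PC3 TRIPZ-MITFA cells. Whether those were the cultures of these arrays is not stated. The epithelial markers KRT8, KRT19 and EPCAM and the mesenchymal VIM and CD44, all known in PC3 cells, were detected on all arrays, and CDH1 was not detected on every one.

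TM4SF19 was more than 2-fold higher in Dox than in No dox at both of its probes. At ILMN_2413644 the signal intensity was 2414, 2206, 2299 and 2583 on the Dox arrays (replicates 1 to 4), against 1107, 966 and 1077 on the No dox arrays (replicates 2 to 4). The groups did not overlap, and the lowest Dox signal was 1.99 times the highest No dox signal. The share of all probes that separate in this way was not counted. TM4SF19 was chosen by this difference, so the separation at its probes is a description only. After background correction and quantile normalization this probe averaged 11.17 ± 0.09 in Dox (SD, n = 4) and 9.94 ± 0.05 in No dox (SD, n = 3) on the log2 scale. Its log2 fold change was 1.23 (95% CI 1.06 to 1.40), which corresponds to a 2.35-fold higher signal. The smallest distance between the groups, 1.08, exceeded the range within Dox (0.23) and within No dox (0.10).

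The second TM4SF19 probe, ILMN_1808325, had a signal intensity of 1584, 1433, 1375 and 1505 in Dox replicates 1 to 4, against 676, 601 and 609 in No dox replicates 2 to 4. Here too every Dox array lay above every No dox array, with the lowest Dox signal 2.03 times the highest No dox signal. On the log2 scale the probe averaged 10.46 ± 0.06 in Dox (SD, n = 4) and 9.13 ± 0.08 in No dox (SD, n = 3), a log2 fold change of 1.34 (95% CI 1.17 to 1.50). The log2 fold changes of both probes differed by 0.10. The intervals give the uncertainty of the difference from limma, with a variance that draws in part on all probes, and stand for no test. The order of the arrays within a group was not shared: among the Dox arrays, replicate 4 was highest and replicate 2 lowest at the first probe, while replicate 1 was highest and replicate 3 lowest at the second. Before any correction, the ratio of mean signals, Dox over No dox, was 2.26 at ILMN_2413644 and 2.35 at ILMN_1808325. Both probes were detected on all 7 arrays, so these ratios rest on signals above background in both groups.

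**Figure D1:**
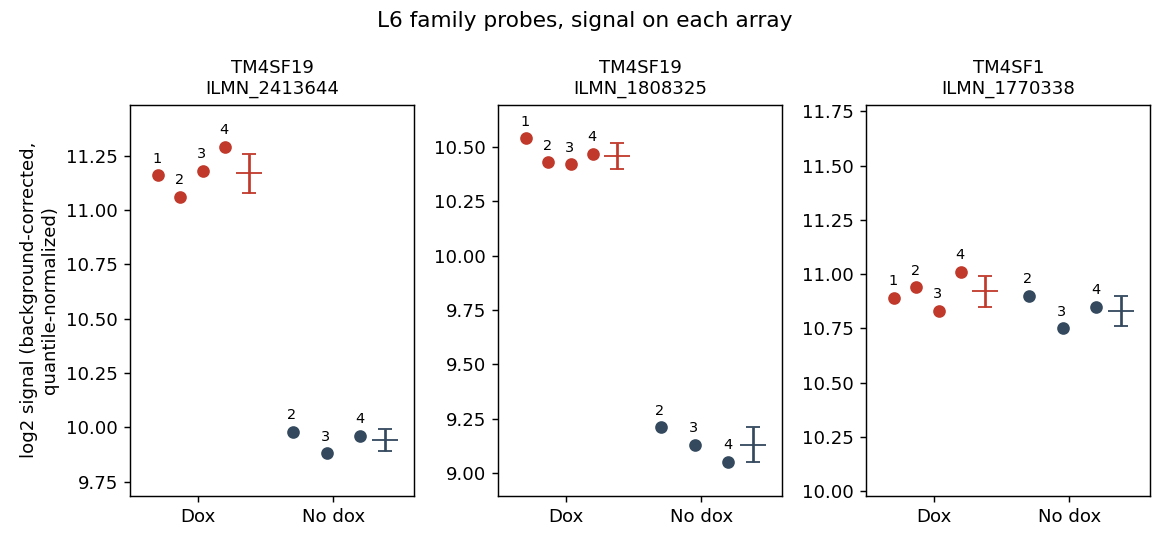
Log2 signal, background-corrected and quantile-normalized, of the 3 L6 family probes on each array, with the replicate number above each point and the mean ± SD of the group (n = 4 Dox, n = 3 No dox) to its right. Each panel has its own axis of the same span; Dox and No dox are far apart at both TM4SF19 probes and overlap at TM4SF1.

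TM4SF1 did not pass the test. Its probe, ILMN_1770338, gave signal intensities of 1999, 2039, 1808 and 2138 in Dox replicates 1 to 4, against 2038, 1717 and 1965 in No dox replicates 2 to 4. The groups overlapped, and replicate 3 was lowest in each. On the log2 scale the probe averaged 10.92 ± 0.07 in Dox (SD, n = 4) and 10.83 ± 0.07 in No dox (SD, n = 3). The log2 fold change was 0.09 (95% CI −0.08 to 0.25, adjusted p = 0.79 from limma over all probes), so the interval leaves room for a signal up to 0.25 higher on the log2 scale and reaches no further. An exact two-sided permutation test over the 35 splits of the arrays gave p = 0.26, where 0.029 is the smallest p this design allows. In the same fit, 8.50% of all probes had an unadjusted p under 0.05, and 0.134% of the 19337 probes were called higher in Dox (adjusted p under 0.05), and 0 were called lower. Both TM4SF19 probes are among these 26, from which nothing is read, since that contrast chose the family.

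The promoters of both measured genes are shown because the cassette encodes a DNA-binding factor. They run from 250 bases before to 50 bases after the annotated start, on the minus strand of chromosome 3, with sequence from RefSeq (GRCh38.p14). TM4SF19 is chr3:196338339-196338638 and TM4SF1 is chr3:149377600-149377899. Capitals mark a match to TCATGTG, the core of the M-box, which in TM4SF19 reads as its reverse complement.
TM4SF19: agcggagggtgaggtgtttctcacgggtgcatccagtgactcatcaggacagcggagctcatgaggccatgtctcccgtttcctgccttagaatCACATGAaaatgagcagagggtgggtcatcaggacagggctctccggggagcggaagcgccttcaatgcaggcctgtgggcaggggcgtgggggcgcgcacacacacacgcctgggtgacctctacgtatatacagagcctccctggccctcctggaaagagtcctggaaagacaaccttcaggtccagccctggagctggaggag
TM4SF1: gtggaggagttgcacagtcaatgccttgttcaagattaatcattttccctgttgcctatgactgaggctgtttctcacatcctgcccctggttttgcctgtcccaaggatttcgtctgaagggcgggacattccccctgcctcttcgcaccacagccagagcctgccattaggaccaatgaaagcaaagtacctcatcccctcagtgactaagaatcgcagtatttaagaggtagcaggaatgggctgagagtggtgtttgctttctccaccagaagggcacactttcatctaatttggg

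The match in TM4SF19 lies 156 to 150 bases before the start. All 6 family genes had a promoter in the table, and the motifs were searched on both strands in windows of this length. TCATGTG was found in TM4SF19 among the 6 and in 2.92% of all 35116 promoters. The shorter CATGTG, which it contains, was found in TM4SF19 and TM4SF5 and in 11.1% of all promoters. CACGTG, the other E-box form bound by MITF, was found in none of the 6 and in 7.26% of all promoters. The general E-box CANNTG, which contains both 6-base forms, was found in TM4SF5, TM4SF18 and TM4SF19 and in 68.7% of all promoters. In TM4SF1 no match to any of these was found within the window. A match is a string of letters and not a binding site, and factor binding at these promoters was not measured on the arrays. The motifs were chosen with the promoter sequences in view.

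The measured genes nearest to TM4SF19 on chromosome 3, which lay 2 to 23 gene places away, are given as a description. TM4SF19 was chosen by its difference and they were not, so nothing is read from their smaller values. Of the 10 nearest measured genes, 5 on each side, 0 were called by limma, against 0.134% of all probes. An unadjusted p under 0.05 was reached by 1, against 8.50% of all probes, and log2 fold changes lay between −0.32 and 0.12. DYNLT2B, which encodes a dynein light chain and with which TM4SF19 has an annotated readthrough transcript, was at 10.73 ± 0.05 in Dox (SD, n = 4) and 10.72 ± 0.01 in No dox (SD, n = 3). Its log2 fold change was 0.01 (95% CI −0.14 to 0.16, adjusted p = 0.98 from limma), and at its second probe −0.13 (95% CI −0.28 to 0.01, adjusted p = 0.61). On the other side, UBXN7, an adaptor of the ubiquitin-selective chaperone p97, had 0.08 (adjusted p = 0.86). RNF168, a ubiquitin ligase of the DNA damage response, had the value farthest from 0, −0.32 (adjusted p = 0.56), at a probe detected on 1 of 4 Dox and 3 of 3 No dox arrays. TFRC, the transferrin receptor, had 0.12 (adjusted p = 0.71).

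Around TM4SF1, whose nearest family relatives TM4SF18 and TM4SF4 carry no value here, 0 of 10 measured neighbours were called, against 0.134% of all probes. They lay 6 to 43 gene places away. An unadjusted p under 0.05 was reached by 0 of them, against 8.50% of all probes, and log2 fold changes lay between −0.11 and 0.20. WWTR1, the transcriptional coactivator TAZ, was the nearest measured gene on one side and had 0.04 (adjusted p = 0.92). CP, the copper protein ceruloplasmin, was the nearest on the other side and had 0.20 (adjusted p = 0.75), at a probe detected on 1 of 4 Dox and 0 of 3 No dox arrays.

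**Figure D2:**
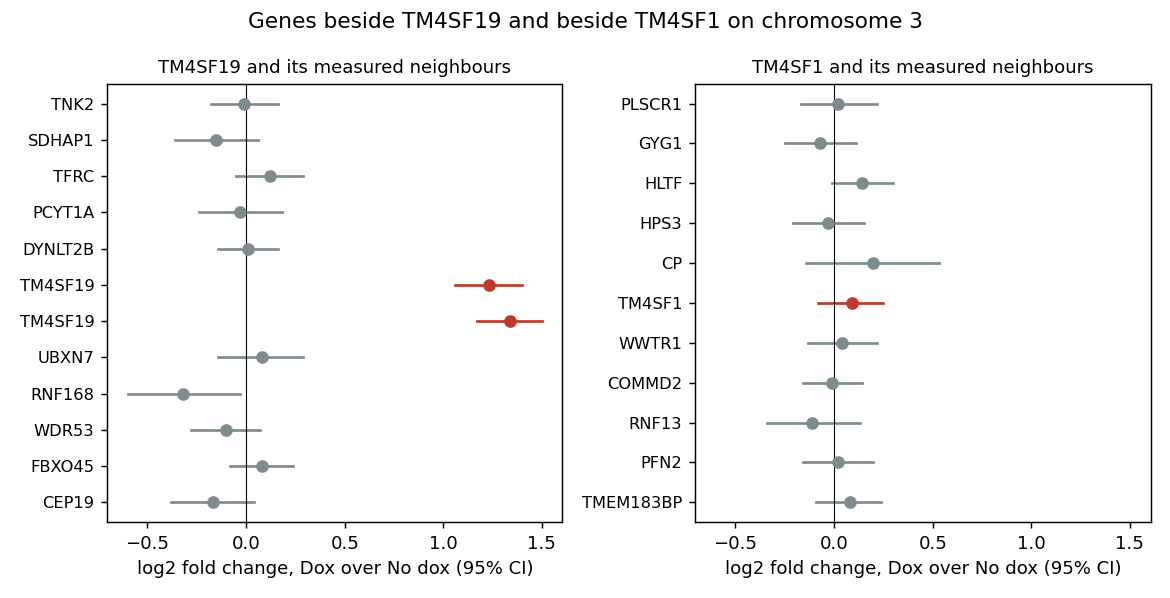
Log2 fold change, Dox over No dox, with 95% CI from limma (n = 4 Dox, n = 3 No dox), for TM4SF19 (2 probes) and TM4SF1 in red and for the 10 nearest measured genes of each in grey, in order along chromosome 3. The neighbours of TM4SF19, up to 23 gene places away, span −0.32 to 0.12. Those of TM4SF1, up to 43 places away, span −0.11 to 0.20. TM4SF19, at 1.23 and 1.34, was chosen by this difference and its neighbours were not.

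Other proteins with 4 transmembrane segments were examined as lists, in which the brightest tested probe stood for each gene. The shares set beside these and the later list count all tested probes, with dim and unnamed ones among them. Shares over the brightest probes alone were not counted, so the base is unlike. Of 33 tetraspanins, 22 were measured, and 14 of these had a log2 fold change above 0 (63.6%, against 49.7% of all tested probes). Their median was 0.06, against −0.00085 over all probes. By limma 0 were called, while 4 were higher and 1 lower at an unadjusted p under 0.05, that is 5 of 22, against 8.50% of all probes in either direction and 4.49% higher. TSPAN31, first known as a gene amplified in sarcoma, had 0.26 (adjusted p = 0.38), and TSPAN10, a tetraspanin of pigment cells, had 0.35 (adjusted p = 0.42). For TSPAN10 the Dox arrays averaged 6.51 ± 0.09 (SD, n = 4) and the No dox arrays 6.16 ± 0.23 (SD, n = 3). The list ran from −0.25 to 0.35.

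Claudins, which seal tight junctions, were measured for 10 of 22 genes, with 6 above 0 (60.0%, against 49.7% of all probes) and a median of 0.07. Again 0 were called by limma, with 1 higher and 1 lower at an unadjusted p under 0.05 (2 of 10, against 8.50% of all probes). CLDN4 was detected on 3 of 4 Dox arrays and on 0 of 3 No dox arrays. On the background-corrected values the fold change of the probe's own signals was 1.28, and CLDN4 was not called (adjusted p = 0.31 from limma). With a floor under the No dox signals, the ratio was 1.10. This ratio sets the Dox mean against the lowest signal of any detected probe on each No dox array, where that is above the signal of the probe itself. On the authors' log2 values the ratio of the probe's own signals was 1.08, so 1.10 is no lower limit. CLDN20 had a log2 fold change of −0.23 (adjusted p = 0.48), and −0.07 on the authors' log2 values. Its probe was detected on 2 of 4 Dox and 3 of 3 No dox arrays. Of 36 genes of further 4-transmembrane families (EMP and PMP22, MAL, CMTM, proteolipid, LAPTM, MS4A and synaptophysin proteins) 19 were measured, 11 were above 0 (57.9%, against 49.7%), the median was 0.04, 0 were called and 2 were higher at an unadjusted p under 0.05 (against 4.49% of all probes). These were GPM6B, a proteolipid protein best known in neurons (0.28, adjusted p = 0.29), and PERP, a p53 target of cell junctions (0.29, adjusted p = 0.47). A second GPM6B probe had an adjusted p of 0.97.

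**Figure D3:**
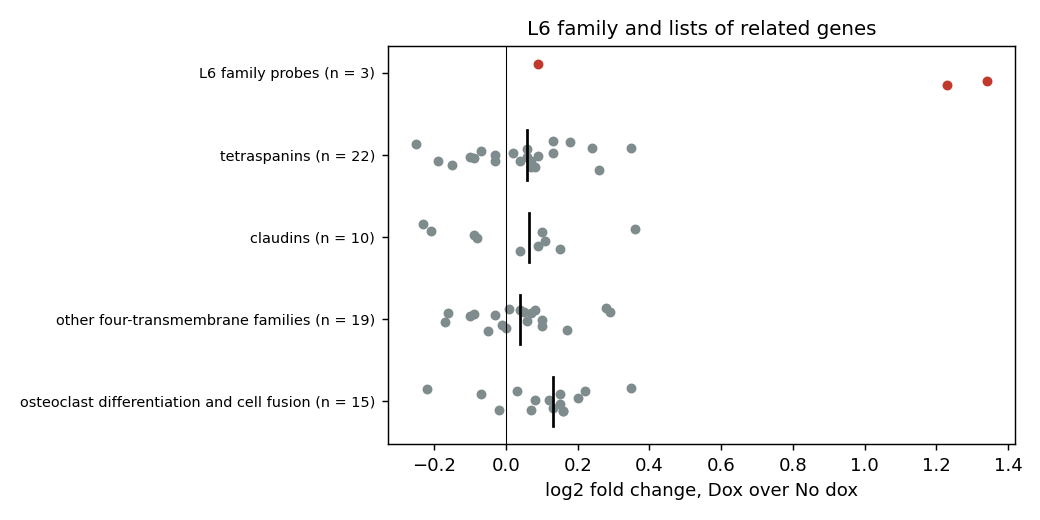
Log2 fold change, Dox over No dox, of the 3 L6 family probes in red and of each measured gene of the 4 lists in grey (1 probe per gene, vertical position within a row arbitrary), with the median of each list as a vertical bar. The listed genes lie between −0.25 and 0.36, where the highest point is CLDN4, whose probe was not above background in No dox.

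Because TM4SF19 is known from osteoclasts, 32 genes of osteoclast differentiation and cell fusion were examined as well. Of the 15 measured, 12 had a log2 fold change above 0 (80.0%, against 49.7% of all probes), with a median of 0.13. Of these 15, 9 were detected on all arrays. By limma 0 were called and 4 were higher at an unadjusted p under 0.05, a level that 4.49% of all probes reached in this direction. SNX10, a sorting nexin needed for bone resorption, had 0.35 (adjusted p = 0.42), at a probe detected on 4 Dox and 2 of 3 No dox arrays. On the authors' log2 values it had 0.12. SIRPA, the receptor of CD47 on myeloid cells, had 0.22 (adjusted p = 0.48), and at its second probe 0.07 (adjusted p = 0.85). The defining osteoclast markers ACP5, CTSK, OSCAR, CALCR and DCSTAMP had no tested probe of that name.

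Markers of leukocytes and macrophages were measured for 3 of 8 genes (CD14, CD68 and AIF1). None of the 3 was called, against 0.134% of all probes. Their summed log2 signal ranged from 8.44 to 8.71 in Dox and from 8.34 to 8.41 in No dox, without overlap. How often sums of other probes separate in this way was not counted, so nothing is read from it. CD68, which is also a lysosomal protein of other cells, was the brightest of them, with 8.27 ± 0.16 in Dox (SD, n = 4) and 8.09 ± 0.02 in No dox (SD, n = 3). PTPRC, CSF1R, ITGAM, MRC1 and TYROBP had no tested probe of that name. The summed signal of the 6 measured markers of PC3 cells, which is led by VIM and CD44, ranged from 13.01 to 13.05 in Dox and from 12.86 to 12.93 in No dox. Of these markers 0 of 6 were called, against 0.134% of all probes. VIM had a log2 fold change of 0.17 and CD44 of 0.16, while the epithelial KRT8 had 0.13, KRT19 −0.01, EPCAM −0.09 and CDH1 −0.07. The part of these markers in the TM4SF19 difference was not tested. In bulk RNA, more cells expressing TM4SF19 and more TM4SF19 RNA per cell cannot be told apart.

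To find the genes whose pattern was most like that of TM4SF19, each of 15058 named probes was centred on its mean over the 7 arrays and set against the centred mean of both TM4SF19 probes. The measure of likeness was the root mean square difference on the log2 scale, which had a median of 0.64 over all these probes and was 0.60 for TM4SF1. Between the 2 TM4SF19 probes themselves it was 0.09. The 6 nearest were MYOC (0.13), which encodes the secreted protein myocilin, GPNMB (0.14), a glycoprotein of melanosomes and lysosomes, LY96 (0.19), the TLR4 co-receptor, KRT75 (0.20), a hair follicle keratin, CRYAB (0.20), a small heat shock protein, and SCGB2A2 (0.21), mammaglobin A. All 6 were chosen for their likeness to a gene that differs between the groups, so their differences are a description. MYOC, at 6.30 ± 0.07 in Dox (SD, n = 4) and 5.20 ± 0.07 in No dox (SD, n = 3), was the closest, with a log2 fold change of 1.09. CRYAB had 1.48 and KRT75 0.92. On the authors' log2 values these were 0.49 for MYOC, 1.10 for CRYAB, 0.62 for KRT75, 0.51 for GPNMB, 0.34 for LY96 and 0.33 for SCGB2A2, whereas the TM4SF19 probes kept 1.18 and 1.24, so the likeness in size depends on the background correction. LY96 and SCGB2A2 were detected on all 4 Dox arrays and on 0 of 3 No dox arrays. On the background-corrected values, taken as for CLDN4, LY96 was 1.62 times and SCGB2A2 1.38 times as bright in Dox. Over the alternatives their fold changes went down to 1.27 for LY96 and 1.26 for SCGB2A2, so these ratios are no lower limits. GPNMB was detected on 4 Dox arrays and on 1 of 3 No dox arrays. Their distances thus rest in part on signals not above background. At its other probe GPNMB had a log2 fold change of 0.64, against 1.38 at the probe ranked here, and both probes were above background on 1 No dox array. Of the 3 among the 6 with a promoter in the table (GPNMB, KRT75 and SCGB2A2), GPNMB held TCATGTG, while KRT75 and SCGB2A2 did not. It was found in 2.92% of all promoters. These genes were chosen by their pattern, so nothing is read from the match.

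The size of the TM4SF19 difference changed little with the processing of the arrays. Over 16 alternatives the log2 fold change lay between 1.18 and 1.27 at ILMN_2413644 and between 1.24 and 1.37 at ILMN_1808325, that is from 2.27-fold to 2.41-fold and from 2.36-fold to 2.58-fold. For TM4SF1 it lay between 0.05 and 0.12, with adjusted p-values from limma between 0.67 and 0.93. The lower end for both TM4SF19 probes, 1.18 and 1.24, came from the authors' log2 values and equally from the uncorrected signal, both of which gave 0.08 for TM4SF1. The share of probes called over the whole array moved more. On the authors' log2 values 0.393% of probes were called higher in Dox and 0.522% in either direction, and the shares were the same without background correction. With normexp without controls they were 0.341% and 0.450%, and with an intensity trend 0.683% were called in either direction. TM4SF1 was called in none of these fits.

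**Figure D4:**
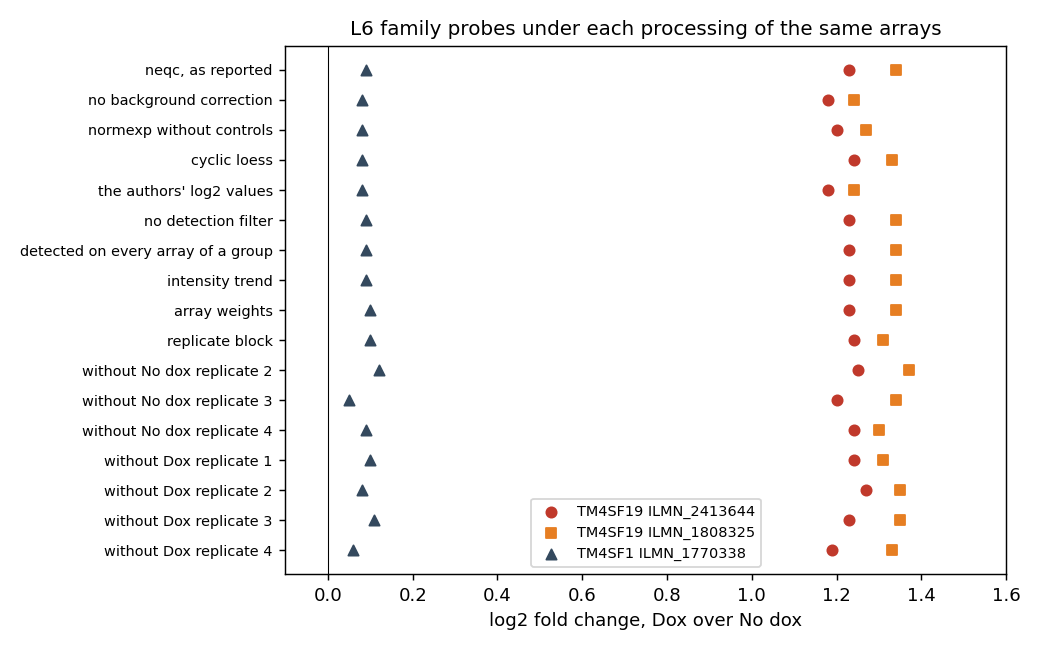
Log2 fold change, Dox over No dox, of the 3 L6 family probes under the reported processing (top row) and 16 alternatives, 7 of which leave out 1 array each. Both TM4SF19 probes stay between 1.18 and 1.37 and TM4SF1 between 0.05 and 0.12.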

How the data were processed

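Labelled cRNA made from RNA of PC3 TRIPZ-MITFA cells was hybridized to 7 arrays. The authors deposited signal intensity values and detection p-values for 47323 probes, which the paper describes as extracted with GenomeStudio. They also deposited log2 values for 19337 probes, which the paper describes as background-corrected and quantile-normalized with lumi. Quantile normalization of the uncorrected log2 signal gave the same values to within 0.046. From the intensities, neqc of limma (version 3.58.1, R 4.3.3) gave background-corrected (offset 16, negative controls inferred from detection p-values), quantile-normalized log2 values. Probes detected (p-value under 0.01) on 1 array or more were fitted with limma by group, with Benjamini-Hochberg adjustment over all 19337. The fit was tested on simulated data. Lumi was not used here.

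Gene names come from the platform annotation, of which 15060 tested probes carry 1 name and 2 carry several. For 15051 of the 15060 the gene identifier was found in RefSeq (GRCh38.p14), from which gene order and promoters were taken. The array files name no build, so no other coordinates are given. ILMN_1808325 was assigned to TM4SF19 from the paper's supplement. Its text copy cuts probe identifiers, and the digits left do not all fit this one. The identity therefore rests on the log2 ratio listed there for TM4SF19, which is 1.24 when rounded. This probe had 1.24 on the authors' log2 values.

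The members and lists were chosen with earlier results of these data known. Named genes were all member probes, up to 6 called genes of each list or, with none called, the 2 with the smallest p, the 5 nearest measured genes on each side of TM4SF19 and TM4SF1, and the 6 probes most like TM4SF19. Where a gene had several probes, the brightest stood for it; of 9 named genes outside the family with further probes, 12 further probes were tested, 0 were called and 6 had the opposite sign. The number of arrays limits the precision. Alternatives covered background correction, normalization, filters, the variance model, array weights, a replicate block and each array left out.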

Additional observations from a re-analysis of the deposited data

Results flagged for a closer look

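In 3 of the 37 named probes, the signal of 1 Dox array lay far from those of the remaining 3, which happens by chance in about 1 of 20 groups. The 4 Dox arrays were the 1 group examined for each probe. None of the L6 family probes was among them. For SIRPA (gap over range 0.944), Dox replicate 3 was at 8.11 on the log2 scale against 7.98 to 7.99 on the others. For PFN2, a profilin gene near TM4SF1 (0.961), Dox replicate 2 was at 10.98 against 11.19 to 11.20. For LY96 (0.835), Dox replicate 2 was at 5.55 against 5.34 to 5.37.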

How the results depend on the processing

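The TM4SF19 probe ILMN_1808325 moved by more than the spread between arrays on uncorrected signal and with the authors' log2 table (1.24 in both, against 1.34), while ILMN_2413644 did not. With 1 array left out, log2 fold changes ranged from 1.19 to 1.27 at ILMN_2413644, from 1.30 to 1.37 at ILMN_1808325 and from 0.05 to 0.12 at TM4SF1. TM4SF1 was called under none of the 16 alternatives. The probes called over the whole array depended on the processing. Against 26 higher and 0 lower, there were 76 and 25 both on uncorrected signal and with the authors' log2 table, 66 and 21 with normexp without controls, 93 and 39 with an intensity trend, and 2 lower when detection was required on every array of a group. With 1 array left out, 12 to 18 were higher and 0 to 1 lower: leaving out No dox replicate 2 gave 13 higher, No dox replicate 3 gave 12, No dox replicate 4 gave 17 higher and 1 lower, and Dox replicates 2 and 4 gave 16 and 14. The cause was not tested, beyond fewer arrays in these fits. Of the lists, 1 tetraspanin was called with an intensity trend (TSPAN3, log2 fold change 0.24, adjusted p = 0.049 from limma, named after its value was seen), and no other list had a call under any alternative.

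The replicate number as a block, on replicates 2 to 4 of both groups, gave 6 probes higher, against 18 on the same arrays without the block, which is the fit without Dox replicate 1. Same-numbered arrays did not deviate together (correlations −0.035, 0.009 and −0.021), so the numbers gave no sign of a pairing. The block left the TM4SF19 log2 fold changes at 1.24 and 1.31 and TM4SF1 at 0.10. Under it GPNMB had 1.30, KRT75 0.90 and SCGB2A2 0.89, against 1.38, 0.92 and 0.92 on all arrays. For the 28 named list and neighbour probes, none was called in any of 446 comparisons with an alternative, and 15 changed sign.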
